A study of Homo sapiens with 4 samples.

Results

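The AlkB homologues ALKBH1 to ALKBH8 and FTO are 9 human enzymes of the 2-oxoglutarate and iron dependent dioxygenase superfamily. Their peaks were taken as every row carrying one of the 9 symbols in the m6A peak lists of the human multiple myeloma cell line RPMI-8226. This gave 11 of 24626 peaks in the shALKBH5 list and 11 of 22448 in the shNC list. All 9 genes had a peak in at least 1 list, out of 12792 genes with any peak. The share of all annotated genes with a peak was not computed, so this count does not set the family apart. The shALKBH5 cells had been transduced with lentivirus carrying a short hairpin RNA against ALKBH5, and the shNC cells with lentivirus carrying the hairpin named shNC. Both came from the same cell line and the same medium with serum, and the labels name no other allele or agent. Poly(A) RNA of each was sequenced before enrichment (input) and after immunoprecipitation with an antibody against N6-methyladenosine (IP), which makes 4 libraries, 1 of each kind in each condition. The sources used here do not give the number of hairpins, the promoter that drives them or the remaining ALKBH5 level. No value had a replicate, so every pair of values below sets 1 list beside 1 other and none was tested. Plasma cell markers carried peaks in both lists at 6 of 8 genes, SDC1, CD38, IRF4, PRDM1, XBP1 and MZB1, while TNFRSF17 and JCHAIN had none. A peak was listed at 1 of 5 T and NK cell markers (CD8A, in the shALKBH5 list alone) and at 1 of 4 myeloid markers (ITGAM, in both lists). A peak is not an expression level, so these counts say only which marker genes had a listed peak.

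AlkB enzymes use oxygen and 2-oxoglutarate to oxidise a methyl group on a base or an amino acid, after which the group is lost as formaldehyde or kept as a hydroxylated product. ALKBH5 and FTO remove methyl groups from N6-methyladenosine in RNA and are known as the erasers of that mark, opposite the METTL3 methyltransferase complex. ALKBH2 and ALKBH3 reverse alkylation damage in nucleic acids. ALKBH1 and ALKBH8 act on tRNA. ALKBH4 and ALKBH7 are known mainly for roles outside base demethylation. The peaks described here show where m6A antibody signal lay on the messenger RNAs of these enzymes. They do not measure the enzymes' own activity or the amount of their RNA.

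ALKBH5, the targeted gene (ENSG00000091542, chromosome 17, RefSeq span 18183828 to 18209954, plus strand, hg38), carried 3 peaks with shALKBH5 and 3 with shNC. Each of them shared bases with a peak of the other list. Of the 9 genes it had the most peaks in both lists. The fold of IP over input, like the log10 p and log10 FDR of each peak, is the authors' own value for that peak and serves to describe or rank peaks within its list.

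The first ALKBH5 peak had a fold of 5.71 at log10 p -237 with shALKBH5, against a fold of 5.98 at log10 p -599 with shNC. Its fold lay near the middle of either list, above 44.5% of shALKBH5 peaks and 46.5% of shNC peaks. Its p stood further out. Among peaks whose fold lay within 10% of its own, it had a stronger p than 93.2% of 1864 shALKBH5 peaks and 98.0% of 1787 shNC peaks. This peak was spliced, with 2 blocks in both lists. Spliced peaks numbered 2 of 11 in each list, this one and one of ALKBH4, where 17.9% of all shALKBH5 peaks and 17.4% of all shNC peaks were spliced. The first block, 9 bases long, began at 18183257, which is 571 bp upstream of the RefSeq start. The second and longest block began at 18184239, 411 bp downstream of that start, and ended at 18184558 with shALKBH5 and at 18184587 with shNC. The stretch from 250 bp before to 50 bp after the RefSeq start thus fell in the gap between the blocks and held none of the peak's bases.

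A second listed peak occupied part of the same place on the opposite strand. AC087164.1 (ENSG00000266677 in the authors' lists, minus strand) had a peak that shared 162 of the 329 bases of the ALKBH5 peak with shALKBH5 (49.2%) and 177 of 358 bases with shNC (49.4%). Seen from AC087164.1, the shared bases were 89.5% of its peak with shALKBH5 and 83.9% with shNC. The AC087164.1 peak had a fold of 5.68 at log10 p -27.8 with shALKBH5, against 9.05 and -102 with shNC. The sources used here do not say whether strand was kept, so reads of ALKBH5 and of AC087164.1 cannot be told apart over these bases. Of the 11 family peaks in each list, this was the only one to share bases with a peak of another gene (9.09%), where 15.0% of all peaks did so in either list.

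**Figure D1:**
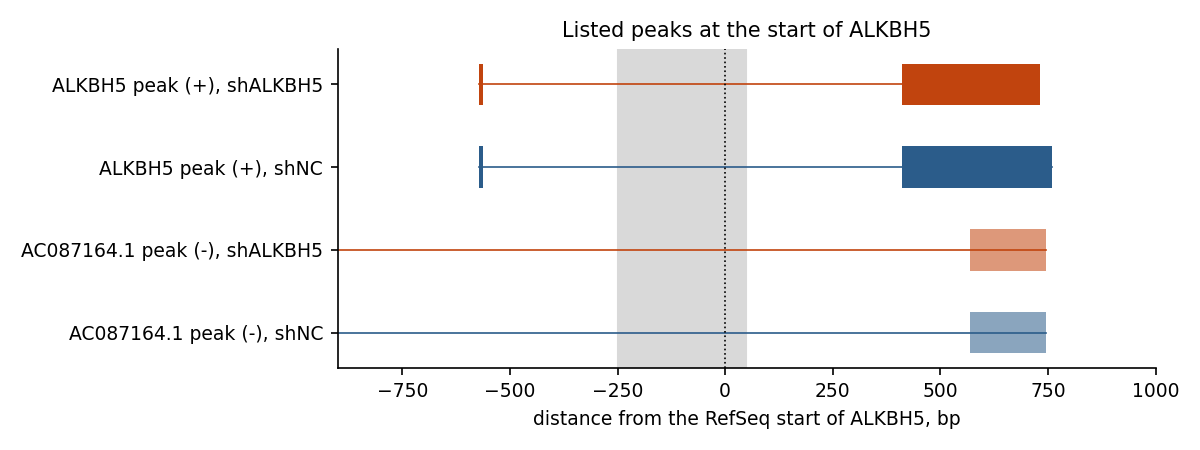
Listed peaks at the start of ALKBH5, as distance in bp from the RefSeq start (dotted line), with shALKBH5 above shNC for each gene. Boxes are the blocks of a peak, thin lines are the gaps between them and the grey band runs from 250 bp before to 50 bp after the start. The longest ALKBH5 block begins 411 bp downstream in both lists, and the paler AC087164.1 block on the minus strand lies mostly inside it.

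The other ALKBH5 peaks lay close to the 3′ end of the gene. At 18208315 to 18208464 with shALKBH5 the fold was 1.61 and the log10 p -9.42, and at 18208345 to 18208494 with shNC the fold was 1.35 and the log10 p -8.27. These peaks were each 150 bases long and offset from one another by 30 bp at both borders. The last ALKBH5 peak ended 60 bp before the RefSeq gene end with shALKBH5, with a fold of 1.57 at log10 p -9.93. It ended 89 bp before the gene end with shNC, with a fold of 1.99 at log10 p -42.5. These 4 folds stood low in their lists. The shALKBH5 pair stood above 2.38% and 1.94% of that list, and the shNC pair above 0.379% and 7.11%. Folds under 2 made up 6.79% of the shALKBH5 list and 7.28% of the shNC list, with median log10 p of -6.70 and -6.76. Against those low-fold peaks, the last ALKBH5 peak had a stronger p than 67.1% with shALKBH5 and 96.0% with shNC.

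Genes with 3 peaks in both lists numbered 622 beside ALKBH5 among protein-coding RefSeq symbols. The nearest to ALKBH5 by their highest fold in the 2 lists were MXD1, with 5.68 for shALKBH5 and 6.04 for shNC, TYMP, with 5.77 and 5.86, and STARD7, with 5.43 and 6.34. Their distances from ALKBH5 were 0.0163, 0.0329 and 0.111 on the log2 scale, computed over those 2 values alone.

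FTO (ENSG00000140718, chromosome 16, RefSeq span 53703963 to 54121941, plus strand), the other m6A eraser, had 1 peak in each list. It spanned 53826166 to 53826466 with shALKBH5, with a fold of 5.48 at log10 p -16.0. With shNC it spanned 53826076 to 53826436, with a fold of 3.65 at log10 p -12.3. The shared stretch was 271 bases, or 90% of the shALKBH5 peak and 75.1% of the shNC peak. FTO is the longest of these genes, at 418 kb, and its peak lay 29.3% of the way along it in both lists. Its 5′ edge was 122203 bp from the gene start with shALKBH5 and 122113 bp with shNC. These distances run along the genome with introns included, and the place on the messenger RNA was not determined. Among peaks of similar fold, the FTO peak had a stronger p than 42.1% with shALKBH5 and 50.2% with shNC, which is a middling place. Along the genomic span, ALKBH5 had listed peaks toward both ends and FTO had its 1 peak inside the gene. The ALKBH5 peaks toward the gene end had folds under 2, and its start peak shared bases with that of AC087164.1. Whether the 2 erasers differ in layout on the messenger RNA was not tested.

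ALKBH2 and ALKBH3, the DNA repair members, had their listed peaks toward the 5′ end, where the first ALKBH5 peak also lay. ALKBH2 (ENSG00000189046, chromosome 12, RefSeq span 109088189 to 109093472, minus strand), which repairs alkylated bases in double-stranded DNA, had 1 peak in each list. It covered 109092501 to 109093007 with shALKBH5, with a fold of 9.71 at log10 p -237. It covered 109092501 to 109093036 with shNC, with a fold of 9.55 at log10 p -227. Its p was stronger than 93.4% of the shALKBH5 list and 92.4% of the shNC list, and its 5′ edge lay 465 bp and 436 bp from the gene start in those lists. ALKBH2 thus held nearly the same place and values in both.

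ALKBH3 (ENSG00000166199, chromosome 11, RefSeq span 43880831 to 43920274, plus strand), which acts on single-stranded DNA and RNA, had a peak in the shALKBH5 list alone. It covered 120 bases, from 43881285 to 43881404, beginning 454 bp from the gene start. Its fold was 3.71, its log10 p -4.47 and its log10 FDR -3.63. This p was stronger than 16.6% of the shALKBH5 list and 16.0% of peaks of similar fold. The nearest shNC peak lay 16.4 kb away and was listed under SEC14L1P1. By their outer borders, 2 shNC peaks listed under other symbols reached into the ALKBH3 span. Of shALKBH5 peaks with a log10 p within 0.5 of the ALKBH3 peak, 47.5% (932 of 1964, exact 95% binomial interval 45.2 to 49.7%) had no partner either.

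ALKBH8 and ALKBH1, the members that act on tRNA, had single peaks in the last part of their genes. So did ALKBH7 and, with shNC, ALKBH6. Single peaks were usual in the family, at 6 of the 8 members present in each list. ALKBH8 (ENSG00000137760, chromosome 11, RefSeq span 107502727 to 107565735, minus strand) joins a methyltransferase and an AlkB domain to modify wobble uridines of tRNA. It had the highest fold of the family in both lists. With shALKBH5 the peak covered 107504486 to 107505172, with a fold of 31.2 at log10 p -161. With shNC it covered 107504516 to 107505172, with a fold of 34.8 at log10 p -175. These folds stood above 97.2% of the shALKBH5 list and 97.8% of the shNC list. The peaks, 687 and 657 bases long, shared a border and lay 96.7% and 96.6% of the way along the gene.

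ALKBH1 (ENSG00000100601, chromosome 14, RefSeq span 77672404 to 77708023, minus strand) removes methyl groups from tRNA and is found in the nucleus and in mitochondria. Its peak covered 77673571 to 77674050 with shALKBH5, with a fold of 7.30 at log10 p -69.9. It covered 77673571 to 77674020 with shNC, with a fold of 13.7 at log10 p -109. The fold stood above 53.8% of the shALKBH5 list and 78.5% of the shNC list. Its p was stronger than 72.3% of peaks of similar fold with shALKBH5 and 76.4% with shNC. The 3′ edge lay 1167 bp from the RefSeq gene end in both lists.

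ALKBH4, ALKBH6 and ALKBH7 complete the family. ALKBH4 (ENSG00000160993, chromosome 7, RefSeq span 102456238 to 102464863, minus strand), known for demethylation of actin, had 2 peaks in each list. The peak nearest the gene end had the same borders in both lists, 102456831 to 102457512. Its fold was 12.9 and its log10 p -179 with shALKBH5, against 13.1 and -213 with shNC. It was the only 1 of the 10 shared family sites with the same borders in both lists, where 14.3% of shALKBH5 peaks with a partner had such borders. The second ALKBH4 peak lay just upstream and was spliced, with a short block at its 5′ edge, 102459401, in both lists. Its fold was 3.65 and its log10 p -26.4 with shALKBH5, against 2.89 and -15.6 with shNC. The longest block of this peak had its 3′ edge at 102457749 with shALKBH5 and at 102457779 with shNC.

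ALKBH7 (ENSG00000125652, chromosome 19, RefSeq span 6372794 to 6375250, plus strand), a mitochondrial member linked to programmed necrosis, had 1 short peak in each list. The shALKBH5 peak had 150 bases, 6375043 to 6375192, a fold of 6.84 at log10 p -12.8. The shNC peak had 90 bases, 6375073 to 6375162, a fold of 3.24 at log10 p -9.42. The shNC peak lay wholly inside the shALKBH5 peak. Of its bases, 45 with shALKBH5 and 15 with shNC also fell in the span of PSPN on the minus strand, a gene with no listed peak of its own. ALKBH6 (ENSG00000239382, chromosome 19, RefSeq span 36009120 to 36014239, minus strand), a less studied member, had a peak in the shNC list alone. It covered the last 150 bases of the gene, 36009120 to 36009269, with a fold of 2.22, a log10 p of -4.15 and a log10 FDR of -3.32. No shALKBH5 peak lay inside the ALKBH6 span, and the nearest was 5.64 kb away, at SYNE4. Of shNC peaks with a log10 p within 0.5 of the ALKBH6 peak, 37.3% (677 of 1813, interval 35.1 to 39.6%) had no partner either.

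**Figure D2:**
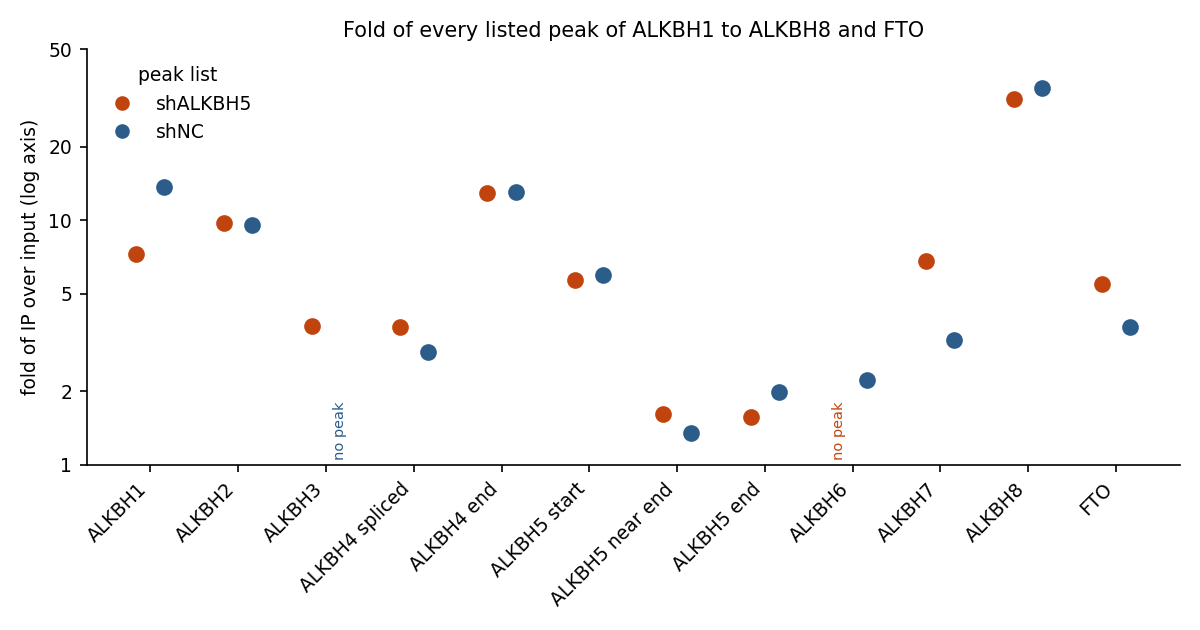
Fold of IP over input (log axis) for every listed peak of the 9 genes, with shALKBH5 left of shNC at each site. Each point is 1 peak with no replicate and no error bar. ALKBH8 stands highest, with 31.2 for shALKBH5 and 34.8 for shNC, and the ALKBH5 peaks toward the gene end stand lowest.

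By the highest fold of each gene, the order with shALKBH5 was ALKBH8, ALKBH4, ALKBH2, ALKBH1, ALKBH7, ALKBH5, FTO and ALKBH3. With shNC it was ALKBH8, ALKBH1, ALKBH4, ALKBH2, ALKBH5, FTO, ALKBH7 and ALKBH6. ALKBH8 led both, and ALKBH4, ALKBH2, ALKBH5 and FTO kept the same order among themselves. With no replicate, the spread that would show which neighbours in these orders differ is unknown. The median fold over the family peaks was 5.71 with shALKBH5, against 6.64 over that whole list, and 3.65 with shNC, against 6.54 over that list. The median log10 p was -26.4 with shALKBH5, against -15.3 over the list, and -42.5 with shNC, against -15.8 over the list. Above the median fold of their list stood 5 of 11 family peaks with shALKBH5 and 4 of 11 with shNC. A p stronger than the list median belonged to 7 of 11 with shALKBH5 and 6 of 11 with shNC.

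**Figure D3:**
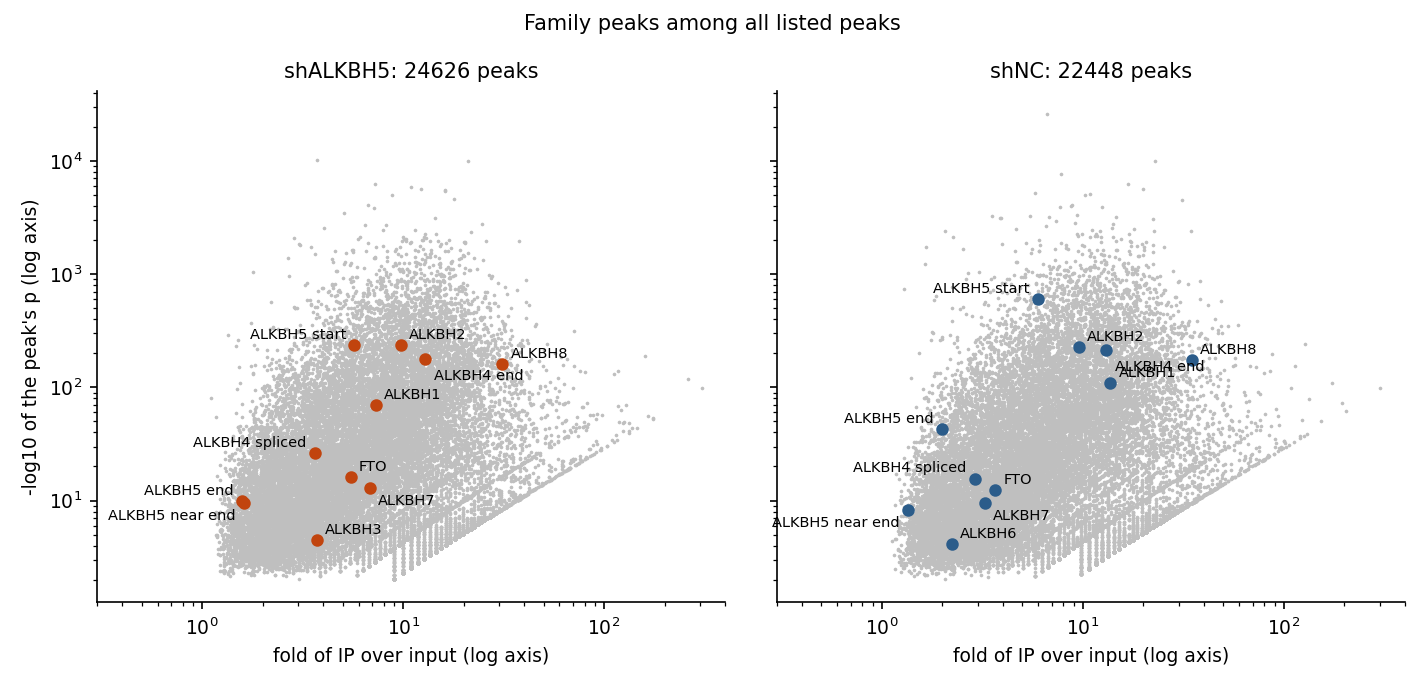
Fold of IP over input (log axis) against the size of the log10 p of the peak (log axis), for the shALKBH5 list (left) and the shNC list (right). Grey points are all 24626 and 22448 peaks, apart from 1 and 2 whose p cell holds no number, and coloured points are the 11 family peaks of each list. The ALKBH5 start peak lies near the upper edge for its fold, and ALKBH3 and ALKBH6 lie near the bottom.

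Of the family peaks, 10 of 11 in each list had a partner, which left 1 without (9.09%, exact 95% interval 0.23 to 41.3%), ALKBH3 with shALKBH5 and ALKBH6 with shNC. Over the whole lists, 19.8% of shALKBH5 peaks and 12.6% of shNC peaks had no partner, and both lie inside that interval. By genes, 7 of the 9 had peaks in both lists, and 1 stood in each list alone. Among all genes with a peak, 11.5% stood in the shALKBH5 list alone and 5.50% in the shNC list alone. The count of 1 is too small to set the family apart from either share.

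Where a family site was shared, its borders moved little. Of the 20 borders of the 10 shared sites, 7 were the same in both lists, 12 differed by 29 or 30 bp and 1, at FTO, differed by 90 bp. Both borders lay within 30 bp in 9 of the 10 pairs (90%, interval 55.5 to 99.7%), against 47.6% of 19619 such pairs over all genes. The shared bases were a median of 89.6% of the joint length of a pair, from 60.0% at ALKBH7 to 100% at ALKBH4, against 82.6% over all pairs. These shares describe 10 pairs from 2 lists, and the pairs of ALKBH4 and ALKBH5 share a gene. The limit of 30 bp is also the step seen in these same borders. The pairs over all genes were not matched to the family pairs by p. The shares therefore do not set the family apart.

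By position, 3 of 11 family peaks with shALKBH5 began upstream of or less than 500 bp after the RefSeq start, at ALKBH2, ALKBH3 and ALKBH5. With shNC there were 2 of 11, at ALKBH2 and ALKBH5. Over all placed peaks the share was 14.5% with shALKBH5 and 11.4% with shNC. The peaks of ALKBH2, ALKBH3 and the longest block of ALKBH5 all began between 411 and 465 bp after the start, close inside that limit, and with 250 bp as the limit 1 peak remained in each list. Peaks whose 3′ edge lay less than 1000 bp from the gene end numbered 3 with shALKBH5 (ALKBH4, ALKBH5 and ALKBH7) and 4 with shNC (the same genes and ALKBH6), where 22.0% and 23.0% of all placed peaks lay there. The remaining 5 peaks of each list lay between these limits, where 63.5% and 65.6% of all placed peaks did. Among them, the peaks of ALKBH1 and ALKBH8 missed the limit at the gene end, though they lay over 95% of the way along their genes. None of the 22 family peaks of the 2 lists had a base between 250 bp before and 50 bp after a start in the RefSeq table of promoters, where all 9 genes have an entry. No share over all peaks stands beside this count, so it does not set the family apart.

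**Figure D4:**
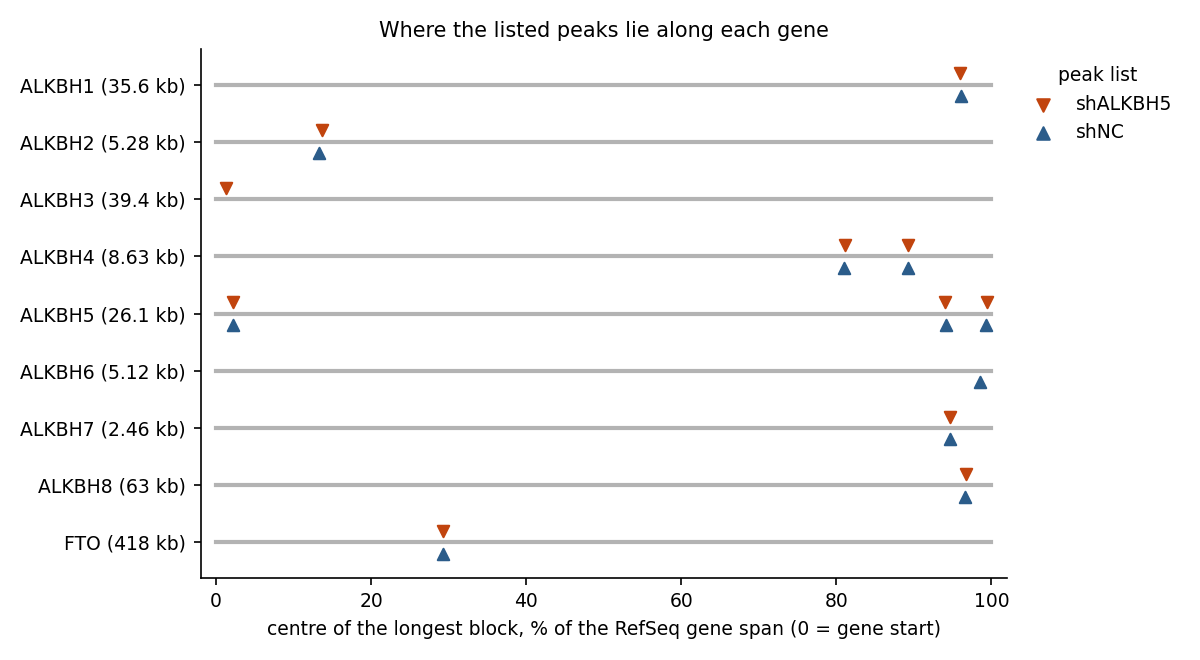
Position of each listed peak along its gene, as the centre of its longest block in % of the RefSeq gene span (0 is the gene start), with the gene length in kb beside the symbol. Triangles above a line are shALKBH5 peaks and triangles below it are shNC peaks. Where both lists have a peak the triangles coincide, ALKBH2, ALKBH3 and the first ALKBH5 peak lie toward the start, and FTO has its peak at 29.3%.

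The genes that work beside these enzymes were described from 4 lists with 26 genes in all. A peak was listed at 25 of them, at 23 in both lists, at 0 in the shALKBH5 list alone and at 2 in the shNC list alone (8% of those with a peak). Among all genes with a peak these shares were 11.5% and 5.50%, so 2 of 25 lies near the share over all genes with a peak. No share over all annotated genes stands beside 25 of 26, so that count does not set these genes apart. The genes of the shNC list alone were ASCC2 and MGMT. ASCC2, a subunit of the complex that recruits ALKBH3 to damaged DNA, had a fold of 1.46 at log10 p -5.52 with shNC. MGMT, which removes alkyl groups from guanine in DNA directly, had 2 peaks with shNC, with folds of 2.19 and 13.4 and log10 p of -5.22 and -3.25. TET1 had no listed peak. Over the 4 lists, 4 of 57 shALKBH5 peaks (7.02%) and 7 of 62 shNC peaks (11.3%) had no partner, where 19.8% and 12.6% of all peaks had none. Many of these peaks share a gene, and they were not matched to all peaks by p. These shares therefore do not set the 4 lists apart.

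Among 10 partners of ALKBH proteins, 9 had peaks in both lists. The median fold was 2.81 over 23 peaks with shALKBH5 and 3.71 over 25 with shNC. The helicase ASCC3, which unwinds DNA for ALKBH3, had a highest fold of 10.2 with shALKBH5 and 22.9 with shNC. These came at log10 p -9.26 and -17.4. The ASCC3 site with the strongest p had folds of 9.77 and 12.4 at log10 p -66.8 and -60.4. The deubiquitinase OTUD4, which stabilises ALKBH2 and ALKBH3, had highest folds of 16.2 and 14.4, both from the same 1470 bases. RBM33, an RNA-binding protein that guides ALKBH5 to its targets, had 14.5 with shALKBH5 and 11.3 with shNC. TRMT112, the activating partner of the ALKBH8 methyltransferase, had 1 peak with shALKBH5, of fold 2.78, and 2 with shNC, of which the one with a partner had a fold of 3.71. Its second shNC peak, with a fold of 5.22 at log10 p -5.68, had no shALKBH5 partner. DDX3X, a helicase that binds ALKBH5, had 3 peaks in each list. Its strongest p came at a shared site, with folds of 5.3 for shALKBH5 and 5.77 for shNC at log10 p -499 and -614. In each list 1 DDX3X peak had no partner, with folds of 1.79 for shALKBH5 and 9.81 for shNC. Those came at the far weaker log10 p of -6.86 and -2.61.

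Of 4 other dioxygenases that act on nucleic acids, the cytosine oxidases TET2 and TET3 carried many more peaks than any AlkB homologue. TET2 had 7 in each list, and TET3 had 7 with shALKBH5 and 8 with shNC. Their highest folds were 15.0 with shALKBH5 and 15.9 with shNC for TET2, and 11.7 and 13.0 for TET3. TYW5, a tRNA hydroxylase, had 1 peak in each list, with 11.5 and 9.07. The median fold of these dioxygenases was 6.33 over 15 shALKBH5 peaks and 6.46 over 16 shNC peaks.

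All 9 tRNA modification enzymes described here had peaks in both lists. Their median fold was 5.47 over 17 shALKBH5 peaks and 5.16 over 17 shNC peaks. TRMT10C, a subunit of the mitochondrial tRNA methyltransferase, had the strongest p of these enzymes at a site with identical borders, where the fold was 13.6 and the log10 p -734 for shALKBH5, against 17.7 and -848 for shNC. ELP3, of the Elongator complex, had 13.2 and 15.4, at log10 p -188 and -211. CTU2, which thiolates wobble uridine, had 14.9 and 7.14, at the far weaker log10 p of -7.08 and -3.77. TRMT61A, the catalytic subunit for N1-methyladenosine in tRNA, had highest folds of 14.1 with shALKBH5 and 10.5 with shNC. Its other shared site stood the opposite way, with 2.05 and 4.66 at log10 p -7.25 and -29.1. NSUN3, whose mitochondrial product ALKBH1 oxidises further, had a shared site with folds of 8.31 for shALKBH5 and 5.16 for shNC. Its log10 p there was -18.9 and -10.6. The highest NSUN3 fold with shNC, 12.5 at log10 p -4.10, came from a peak without an shALKBH5 partner. MPG and APEX1, of base excision repair, had folds of 2.49 and 1.91 with shALKBH5, against 2.74 and 1.61 with shNC.

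**Figure D5:**
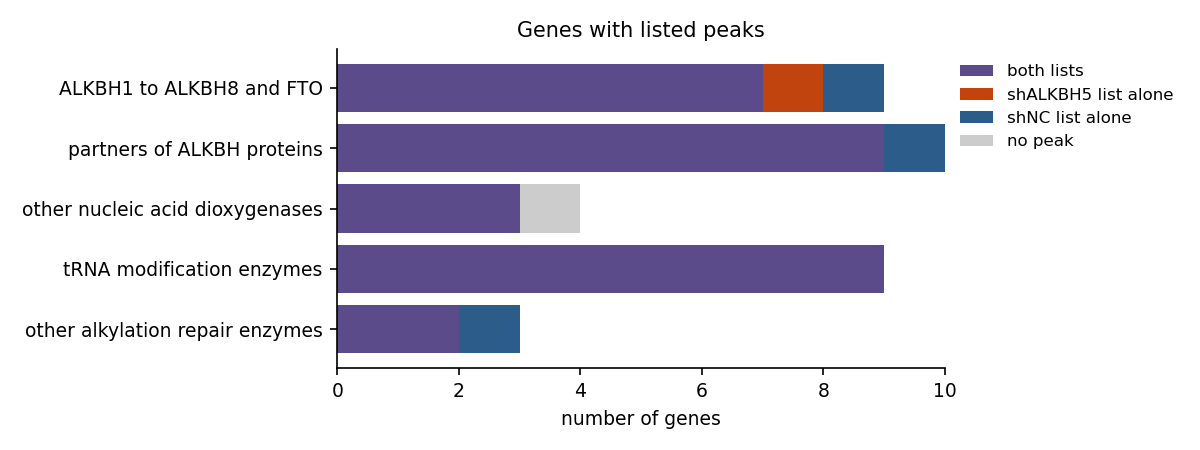
Number of genes with listed peaks in both lists, in the shALKBH5 list alone, in the shNC list alone or in neither, for the 9 family genes and the 4 lists of genes that work beside them. Most genes of each row have peaks in both lists, 1 family gene stands in each list alone, and ASCC2 and MGMT are the genes of the shNC list alone among the 26 others.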

How the data were processed

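RPMI-8226 poly(A) RNA was sequenced as m6A IP and input, 1 library of each per condition. HOMER 4.9.1, BWA 0.7.12, fastp 0.19.11 and the build hg38 appear, with no role or order, in the submitters' processing notes. The sources used here do not name the peak caller. Per the file headers, the authors deposited for each peak a fold (ratio) of IP over input, a log10 p and a log10 FDR (treated as scores for their wide range) and a p-value in a column headed score. Depth is unknown, because no table holds reads. Intervals are exact (Clopper-Pearson) 95% intervals and cover counting error of peaks only.

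A peak had a partner when its blocks shared at least 1 base with the other list's peaks on either strand. Starts were converted to count from 1. Positions are relative to genomic RefSeq spans of GRCh38.p14, introns included, and not to the messenger RNA. These spans placed 88.2% of shALKBH5 and 88.5% of shNC peaks. Partner and distance calls were tested on simulated data. Software was pandas 2.3.3, numpy 2.4.6, SciPy 1.17.1 and matplotlib 3.10.9 under Python 3.11.15.

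The 9 genes and the lists of other genes were chosen with earlier results of these data known. All 9 were named, as were list genes standing in 1 list alone and up to 3 per list with the highest folds. Similarity to ALKBH5 was ranked among protein-coding genes with as many peaks. TRMT112, DDX3X, NSUN3 and TRMT61A were added after their values were seen. Alternatives were stricter fold or p, a partner within 200 bp, reciprocal overlap of 50%, matching strand, lists of equal length, merging within 100 bp and a start limit of 250 bp. One gene of the lists is not reported here. A genome sequence was not used here.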

Additional observations from a re-analysis of the deposited data

How the results depend on the processing

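The number of family peaks stayed within 1.5 times its value under every alternative run, from 9 to 11 with shALKBH5 and from 8 to 11 with shNC. The lowest counts came when peaks had to reach 2 times their list's lowest fold, which removed the ALKBH5 peaks toward the gene end in both lists and ALKBH6 from the shNC list. The count of 1 peak without a partner in each list was the same with reciprocal overlap of 50%, a partner within 200 bp, the same strand, lists of equal length and merged peaks. With a log10 p of -5 or below it was 0 for shALKBH5 and 0 for shNC, since ALKBH3 and ALKBH6 then leave their lists. With the stricter fold it was 1 for shALKBH5 and 0 for shNC, since ALKBH6 alone leaves. With a start limit of 250 bp, start peaks numbered 1 with shALKBH5 and 1 with shNC, in place of 3 and 2. That remaining peak was ALKBH5, counted through its 9-base block. Taking the longest block in place of the outer edge, an alternative chosen after the data were seen, left 3 and 2 at 500 bp. No paired analysis was possible because each kind of library has 1 sample per condition and the lists come from no test. Depth limits every statement, since neither reads nor replicates show how far 2 lists of the same condition would differ.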
